A study of Homo sapiens with 16 samples.

Results

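Gene expression was compared between cells given T4 or T5 and cells given CPT, taken here as camptothecin. The cells were U2OS, a long-established line from a human osteosarcoma. The comparison used 15 of the 16 libraries of the series. They were 10 libraries of T4 or T5, with 5 of each compound, and 5 libraries of CPT, and the members were chosen by the compound and dose in the sample titles. Each compound was given for 6 h at 0.5, 2, 5, 10 and 20 µM, with 1 library per compound and dose. The series describes T4 and T5, known here by these code names alone, as modulators of alternative polyadenylation. The remaining library was from cells given DMSO, taken here as the solvent control. It entered no test, but it counted in the mean expression that decided which genes were tested. Otherwise it is quoted only as a reference level. No group had a replicate at any dose, and nothing in the sources used here says whether the dishes came from separate experiments. The p-values thus rest on how far single libraries depart from the mean difference. That spread also holds differences between T4 and T5 and changes of the difference with dose. The rest of it can be technical alone.

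Camptothecin traps topoisomerase I, the enzyme that relieves twisting of DNA ahead of moving polymerases, on the DNA it has cut. The trapped enzyme blocks RNA polymerase II inside genes and, at replication forks, leads to DNA breaks and activation of p53, the transcription factor that drives cell cycle arrest and apoptosis genes. Cleavage and polyadenylation is the step that cuts the nascent transcript and adds its poly(A) tail, and the choice among several possible sites in a gene is called alternative polyadenylation.

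Values were FPKM, fragments scaled to transcript length and to the mapped fragments of the library, for 25270 genes. This scaling removes the total depth, which is unknown. Depth relative to the DMSO library, read from the spacing of low values, was 0.697 to 0.829 in the CPT libraries and 0.637 to 0.993 in the T4 and T5 libraries, so the sides overlapped. They did not overlap in the number of genes listed at 0, which was 7278 to 7398 with CPT and 7438 to 7818 with T4 and T5. The part of that difference in the results was not tested. FPKM is a share of each library, so less RNA per cell and fewer cells cannot be told apart from it. The bone and mesenchymal markers COL1A1, SPARC, VIM and FN1 were at 129 FPKM or more in every library. COL1A2, SP7, IBSP, BGLAP and TWIST1, of the same list, were at or below 0.195 FPKM. Of 12 bone and mesenchymal markers, 5 were below 1 FPKM in all 16 libraries. Their summed FPKM was 1197 to 1725 with CPT and 1095 to 1701 with T4 and T5. Of the 7 members tested, 2 were higher and 1 was lower with T4 and T5, against 29.5% and 42.3% of all genes tested. The largest differences were 0.38 for RUNX2, the osteoblast transcription factor, 0.30 for SPP1 (osteopontin), −0.20 for SPARC, which binds collagen, and −0.11 for ALPL, a phosphatase of bone. That of ALPL did not pass the test. At 5, 10 and 20 µM alone those of RUNX2 (0.22), SPP1 (0.29) and SPARC (−0.14) did not pass it either, nor did that of SPARC after median centring (−0.07). The 10 blood cell markers summed to 0.626 to 2.83 FPKM with CPT and 0.461 to 1.11 with T4 and T5, and 9 of the 10 were below 1 everywhere. Epithelial markers summed to 229 to 326 FPKM with CPT and 253 to 428 with T4 and T5, mostly KRT8 and KRT18, and 5 of 10 were below 1 everywhere. Of 5 tested, 2 were higher with T4 and T5, against 29.5% of all genes tested. They were KRT18 (0.34) and KRT14 (0.30), and CLDN4 (0.18) and KRT8 (0.05) did not pass the test.

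Genes long in the genome were higher, and compact genes with few exons were lower, with T4 and T5 than with CPT. The mean difference in log2(FPKM + 1) over matched doses was tested with limma for 10600 genes with a mean of at least 1 FPKM, with dose as a block and Benjamini-Hochberg adjustment. At an adjusted p under 0.05, 3128 genes (29.5%) were higher and 4483 (42.3%) were lower with T4 and T5, 71.8% in either direction. Differences of at least 2-fold were also present in 404 of the higher genes (3.81% of those tested) and 935 of the lower genes (8.82%). All 10 T4 and T5 libraries lay above all 5 CPT libraries for 890 genes (8.4%) and below them for 1421 (13.4%). The split depended on scaling. The median difference over all genes was −0.10, and it was 0.04 after each library was centred on its median and 0.004 after quantile normalization. Centring gave 3990 higher and 3040 lower genes, and quantile normalization 3899 and 3563.

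The genes at least 2-fold apart differed in which side stood away from DMSO. For the 404 higher genes the median ratio to DMSO was −1.60 with CPT and −0.35 with T4 and T5, in log2 units, and in 351 of them CPT was at least 2-fold below DMSO. For the 935 lower genes the median was 0.50 with CPT and −0.93 with T4 and T5. In 697 of these, CPT was above and T4 and T5 were below DMSO. Across all 10600 genes the corresponding medians were −0.10 and −0.24. These ratios rest on 1 DMSO library and have no replicate check.

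EXT1, a glycosyltransferase that builds heparan sulphate, had the largest difference among the long genes. It was at 6.88, 3.22, 4.86, 5.82 and 5.92 FPKM with 0.5, 2, 5, 10 and 20 µM CPT. With T4 and T5 it ranged from 28.6 to 72.3 FPKM with a median of 42.5, and it was at 59.7 with DMSO. The groups did not overlap, and the lowest T4 or T5 values were those at 10 and 20 µM T5. The mean difference was 2.88 ± 0.18 (SE), with an adjusted p of 1.42e-07 (limma). GPHN encodes gephyrin, which anchors inhibitory neurotransmitter receptors and makes the molybdenum cofactor. It was at 0.658, 0.771, 0.816, 0.957 and 1.07 FPKM with rising CPT dose, between 5.20 and 19.7 (median 7.25) with T4 and T5, and at 20.7 with DMSO. Every T4 and T5 library exceeded every CPT library, and the highest were at 0.5 µM (difference 2.36 ± 0.21; limma, adjusted p = 1.24e-06). DIAPH3, a formin that assembles actin filaments, was at 1.48, 2.55, 3.48, 3.73 and 3.57 FPKM with CPT and between 12.9 and 16.02 (median 14.3) with T4 and T5. With DMSO it was at 16.1, close to all the T4 and T5 libraries. The mean difference was 2.002 ± 0.13 (limma, adjusted p = 1.63e-07). NUP35, a nuclear pore protein, was at 7.38, 2.69, 1.81, 1.68 and 2.18 FPKM with CPT and 8.36 to 30.4 (median 17.2) with T4 and T5, against 15.7 with DMSO. It too had no overlap between the groups (2.30 ± 0.17; limma, adjusted p = 3.72e-07).

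The other genes among the 12 with the largest positive difference were of several kinds. To be named, a gene had to be higher in all 10 matched pairs. GSK3B, a kinase of Wnt and glycogen signalling, differed by 2.06 and PPP2R5E, a regulatory subunit of protein phosphatase 2A, by 2.05. DDX10, an RNA helicase of ribosome assembly, differed by 2.07 and MSL2, a ubiquitin ligase of a histone acetyltransferase complex, by 2.08. For PPP2R5E the groups overlapped at the lowest CPT dose (11.2 FPKM), but the other 4 CPT libraries were at 2.38 to 3.02 FPKM. EID3, a subunit of the SMC5/6 complex, was at 0.0865 to 0.323 FPKM with CPT and 0.0812 with DMSO. It was at 0.870 to 9.62 with T4 and T5. Only through these libraries did it pass the filter of a mean of at least 1 FPKM. Its difference of 2.43 depended on the pseudocount and was 4.23 with a pseudocount of 0.1 and 1.04 with 5. KRTAP2-3, a hair keratin-associated gene, was at 10.9 to 16.6 FPKM with CPT, 22.6 with DMSO and 35.2 to 298 with T4 and T5 (difference 3.01). Near-identical copies of it exist, so its reads may be divided among them. RPPH1, the RNA of ribonuclease P, was at 0.544 to 2.76 FPKM with CPT and 2.84 to 21.4 with T4 and T5 (2.38), and FPKM of so short an RNA is uncertain. EGR1 is described with the early genes. The SE of these 12 genes ranged from 0.13 to 0.30 and the adjusted p (limma) from 1.42e-07 to 6.02e-05. Against DMSO, 9 of the 12 were lower with CPT.

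S1PR3, a receptor for the lipid sphingosine 1-phosphate, had the largest negative difference. It was at 13.2, 18.9, 17.3, 15.5 and 16.8 FPKM with CPT and 0.590 to 1.93 (median 0.835) with T4 and T5, against 3.69 with DMSO. No T4 or T5 library came within the CPT range, and CPT was above and T4 and T5 were below DMSO (difference −3.16 ± 0.13; limma, adjusted p = 1.24e-08). TMEM177, a mitochondrial protein of cytochrome c oxidase assembly, was at 21.6, 28.6, 31.1, 32.1 and 33.6 FPKM with CPT and 13.0 with DMSO. With T4 it was at 9.54, 4.45, 2.79, 0.971 and 0.558, and with T5 at 6.59, 3.64, 1.96, 1.17 and 0.803. It was thus higher at each higher dose of CPT and lower at each higher dose of T4 and of T5 (−3.10 ± 0.32; limma, adjusted p = 4.16e-06). TOB2, an adaptor that recruits the deadenylase to mRNA, was at 18.2, 33.8, 41.7, 46.5 and 48.4 FPKM with CPT and 1.69 to 9.26 (median 5.58) with T4 and T5, against 11.1 with DMSO (−2.67 ± 0.32; limma, adjusted p = 1.25e-05). PGF, a growth factor for blood vessels, was at 8.42, 11.0, 13.2, 14.7 and 20.4 FPKM with CPT and 0.269 to 3.22 (median 1.10) with T4 and T5, against 1.78 with DMSO (−2.63 ± 0.29; limma, adjusted p = 6.16e-06).

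The other 8 genes of this kind were ORAI1, a plasma membrane calcium channel (−2.98), FAM220A (−2.95), FAM46C (−2.84), CSRNP2 (−2.67), FOSL1 of the AP-1 transcription factor (−2.65), EXO5, a DNA exonuclease (−2.64), INTS5 of the Integrator complex (−2.58) and WIBG, which recycles the exon junction complex (−2.54). The naming rule asked for the same sign in all 10 pairs, so that trait of the 12 genes was fixed in advance. The ranges did not overlap for any of them, against 13.4% of all genes tested with all T4 and T5 libraries below all CPT libraries. The 12 genes were picked for large differences, which makes ranges apart more likely. All 12 were above DMSO with CPT, and all 12 were below DMSO with T4 and T5 on average. Their adjusted p (limma) ranged from 1.24e-08 to 1.25e-05. A pseudocount of 5 brought S1PR3, ORAI1, FAM46C, CSRNP2, EXO5, PGF, INTS5 and WIBG to between −1.84 and −1.41, with the same direction and call. ORAI1 and FAM46C passed the filter of a mean of at least 1 FPKM only through the CPT libraries.

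**Figure D1:**
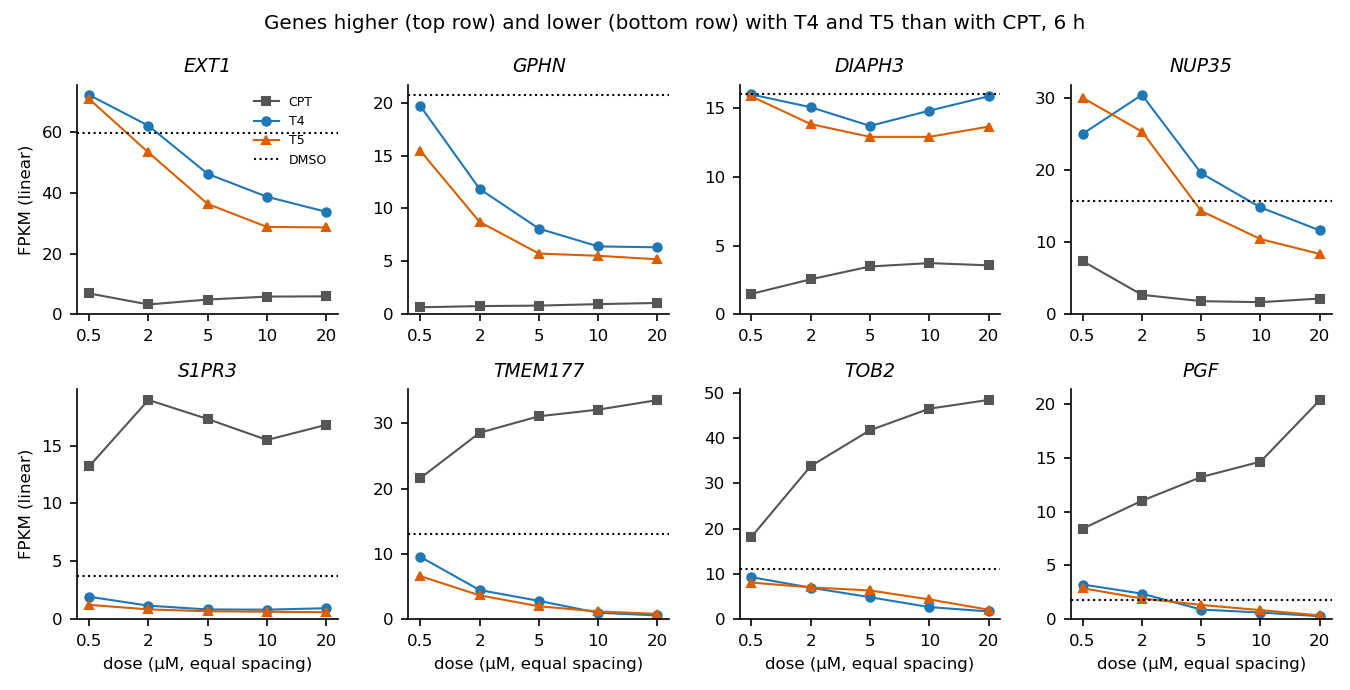
FPKM (linear axis from 0) at each dose in µM, equally spaced, of 4 genes higher (top row) and 4 lower (bottom row) with T4 and T5 than with CPT. Points are single libraries and the dotted line is the DMSO library. In each panel the T4 and T5 points lie on the same side of the CPT points at every dose, as the naming rule required. EXT1 was at 28.6 to 72.3 FPKM against 3.22 to 6.88.

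The named higher and lower genes differed in the size of the gene, a property that was examined after the differences were seen. Span is the distance from the start to the end of a gene with its introns. Span and exon number came from GENCODE release 29 and matched 10427 of the 10600 genes. Exons were counted in a single transcript per gene, the one ranked highest as its principal transcript, or the longest where ranks were equal. The 12 higher genes spanned 0.333 to 674 kb with a median of 110 kb, and the 12 lower genes 6.46 to 31.2 kb with a median of 14.1 kb. Of the higher genes, 6 spanned over 100 kb, but KRTAP2-3, EID3, RPPH1 and EGR1 were shorter than any of the 12 lower genes. EXT1 spans 317 kb, GPHN 674 kb and DIAPH3 498 kb, and S1PR3, TMEM177 and TOB2 span 14.2, 7.34 and 13.5 kb. Among the 404 genes at least 2-fold higher the median span was 151 kb with 17 exons, and among the 935 at least 2-fold lower it was 14.0 kb with 5 exons, against 31.1 kb and 9 exons for all genes tested.

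Over the 10097 protein-coding genes tested, the difference followed the span. Of 670 genes spanning more than 200 kb, 544 (81.2%) were higher and 24 (3.58%) were lower, with a median difference of 0.55. For 1211 genes of 100 to 200 kb the median was 0.40, for 1774 genes of 50 to 100 kb 0.11, and for 2802 genes of 20 to 50 kb −0.15. The medians were −0.34 for 1718 genes of 10 to 20 kb, −0.38 for 1089 genes of 5 to 10 kb and −0.31 for 833 genes of up to 5 kb. In the group of 5 to 10 kb, 57 genes (5.23%) were higher and 808 (74.2%) were lower. Across genes, which are not independent replicates, Spearman's rho between span and difference was 0.58, and it was 0.44 between exon number and difference. Libraries and length scaling are shared by all genes, so these are descriptions. Shares over all genes, quoted beside the gene lists below, do not allow for span.

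Exon number also separated the genes. The median difference was −0.40 for 210 genes with 1 exon, −0.68 for 426 genes with 2 exons and −0.40 for 597 genes with 3 exons. It was 0.30 for 1374 genes with more than 20 exons. Within the same span, genes with up to 3 exons had lower medians than genes with more. In genes of 10 to 20 kb the medians were −0.70 for 236 genes with up to 3 exons and −0.30 for 1482 with more. In those of 20 to 50 kb they were −0.63 for 175 genes and −0.13 for 2627 genes. Above 200 kb, the 16 genes with up to 3 exons had a median of 0.11 and the 654 with more had 0.56.

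The gene span pattern was present at the lowest dose. At 0.5 µM CPT the genes of more than 200 kb had a median log2 ratio to DMSO of −1.06, and it was −0.76 at 20 µM. With T4 the same median was −0.04 at 0.5 µM, −0.28 at 5 µM and −0.08 at 20 µM, and with T5 it was −0.14, −0.43 and −0.22. For genes of up to 5 kb the median was 0.30 at 0.5 µM CPT and 0.62 at 20 µM, and it was between 0.00 and 0.40 in the 10 T4 and T5 libraries. In matched pairs, the median difference of the genes above 200 kb was largest at 0.5 µM, with 0.95 for T4 and 0.82 for T5, and lowest for T5 at 10 µM, with 0.34. It was above 0 in all 10 pairs, as was that of the genes of 100 to 200 kb.

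**Figure D2:**
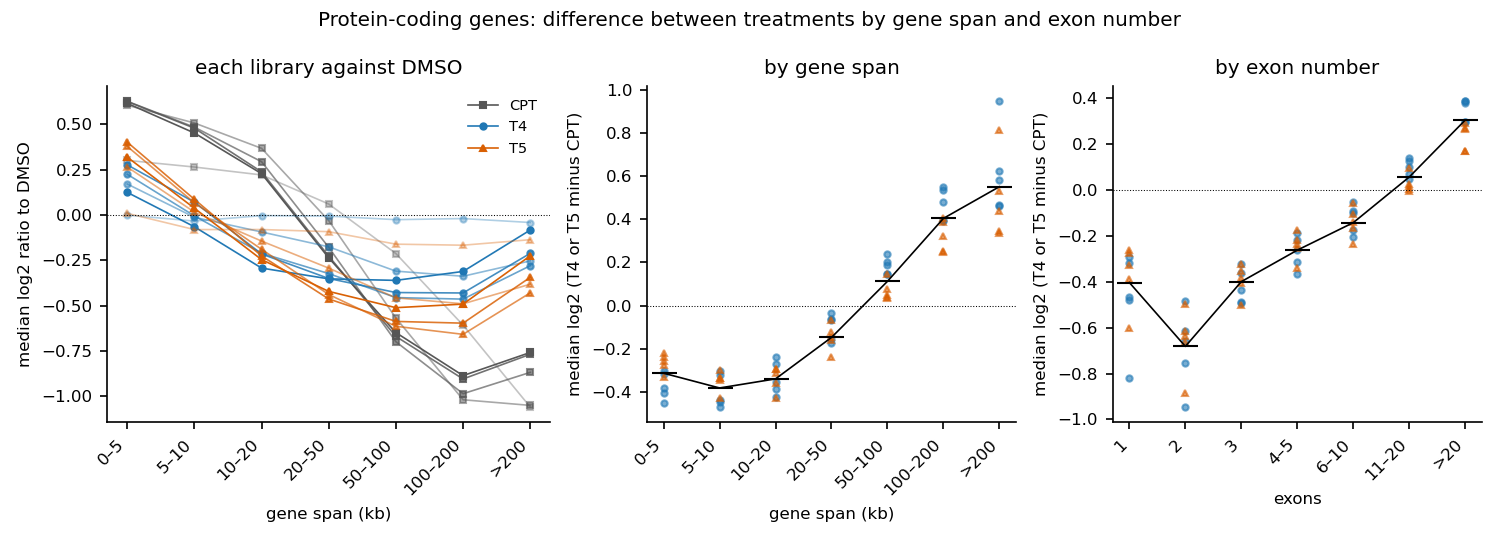
Medians over protein-coding genes grouped by gene span or exon number. Left: log2 ratio of each library to DMSO, with darker lines for higher doses. Middle and right: log2 difference of each T4 (circles) or T5 (triangles) library from the CPT library of the same dose, with the median of the mean differences as black bars, which run from −0.31 to 0.55 over span.

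A list of 36 very long genes, of which 31 passed the expression filter, showed the pattern gene by gene. All 31 were higher with T4 and T5, against 29.5% of all genes tested, with differences from 0.18 for WWOX to 2.36 for GPHN and a median of 1.18, and 29 of them were higher in every pair. They span 362 to 1288 kb, within the class above 200 kb, where 81.2% of protein-coding genes were higher. The list is thus a part of that result and no separate support for it. The list was chosen for length and with earlier results of these data known. CDKAL1, a tRNA-modifying enzyme, was at 0.711, 0.997, 1.46, 1.75 and 1.56 FPKM with CPT and 6.51 to 10.6 (median 7.66) with T4 and T5, against 10.2 with DMSO. FOXP1, a forkhead transcription factor, was at 0.321 to 0.702 FPKM with CPT and 3.18 to 5.69 with T4 and T5, against 5.39 with DMSO. VPS13B, a lipid transfer protein of the Golgi, was at 1.42 to 2.21 FPKM with CPT and 6.44 to 12.6 with T4 and T5, the latter all above its 4.54 FPKM with DMSO. These 3 genes differed by 1.97 ± 0.13, 1.80 ± 0.08 and 1.77 ± 0.09 (limma, adjusted p = 1.90e-07, 3.26e-08 and 5.31e-08). Relative to DMSO the list's median was −1.16 with CPT and 0.02 with T4 and T5. The median by pair was 1.56 for T4 and 1.49 for T5 at 0.5 µM, and 1.03 and 0.87 at 20 µM.

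The p53 target genes were mostly lower with T4 and T5 than with CPT. Of 26 tested, 21 were lower, against 42.3% of all genes, 1 was higher and 4 did not pass the test, with a median difference of −0.96 against −0.10 for all genes. BTG2, an antiproliferative adaptor of the deadenylase, was at 41.8, 60.3, 59.3, 58.5 and 52.7 FPKM with CPT. With T4 and T5 it ranged from 4.23 to 14.2 with a median of 9.65, and with DMSO it was at 4.45. The groups were far apart and all but 1 of the T4 and T5 libraries were above DMSO (difference −2.47 ± 0.13; limma, adjusted p = 5.15e-08). CDKN1A encodes p21, the inhibitor of cyclin-dependent kinases. It was at 128, 142, 142, 139 and 137 FPKM with CPT, 25.5 to 87.0 (median 45.8) with T4 and T5, and 31.6 with DMSO (−1.53 ± 0.19; limma, adjusted p = 1.53e-05). The highest T4 and T5 libraries for CDKN1A were those at 2, 5 and 10 µM T5, with 78.2, 87.0 and 62.6 FPKM. PLK3, a stress kinase, differed by −2.29 ± 0.17, and SESN2 and SESN1, sestrins that restrain growth signalling, by −2.13 ± 0.23 and −2.03 ± 0.10. The median span of the 26 genes was 18.7 kb, and 68.5% of protein-coding genes of 10 to 20 kb were lower. SESN1, with 108 kb, had the longest span of the list.

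MDM2, the ubiquitin ligase of p53, did not follow the list. It was at 34.1, 11.6, 6.31, 5.76 and 6.30 FPKM with CPT, 17.1, 16.4, 11.0, 7.55 and 7.17 with T4, and 18.1, 12.5, 7.61, 6.16 and 5.14 with T5, against 13.2 with DMSO. CPT was the highest at 0.5 µM only, and the mean difference was 0.00 ± 0.17 (limma, adjusted p = 0.994). Without the 0.5 µM libraries it was 0.23, also with no call. Across the list, 21 of 26 genes were above DMSO with CPT and 11 of 26 with T4 and T5. The 1 higher gene was ZMAT3 (0.50), an RNA-binding protein, and GADD45A, MDM2, POLH and RRM2B were the 4 with no call. These names were taken after the values were seen, except MDM2. The counts were also 1 higher and 21 lower after median centring, and after quantile normalization.

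**Figure D3:**
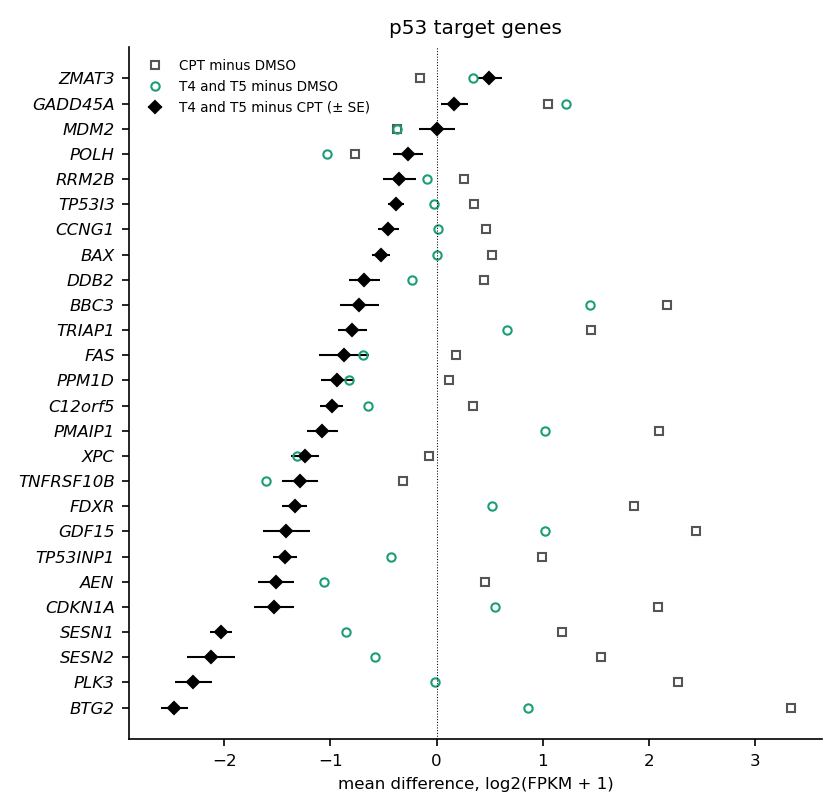
Mean difference in log2(FPKM + 1) of 26 p53 target genes. Black diamonds are T4 and T5 against CPT, with the SE of the limma fit. Squares are CPT against DMSO and circles are T4 and T5 against DMSO. BTG2 lies at −2.47, CDKN1A at −1.53 and MDM2 at 0.00.

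Death receptors and their adaptors, which carry apoptosis signals from the cell surface, were lower in 8 of 10 tested and higher in 2, against 42.3% and 29.5% of all genes, with a median of −0.93. With CPT taken 1 dose step lower, 8 were lower and none was higher at the adjusted threshold. TNFRSF1A, the main TNF receptor, was at 34.0, 21.9, 12.8, 9.49 and 9.88 FPKM with CPT and 0.844 to 17.4 (median 2.64) with T4 and T5, against 29.2 with DMSO. Both sides were lower at higher doses, and T4 and T5 were below CPT in all 10 pairs (−1.94 ± 0.17; limma, adjusted p = 9.63e-07). FADD, the adaptor that recruits caspase 8, differed by −1.59, TNFRSF10B, a TRAIL receptor, by −1.29, and the kinase RIPK1 by −1.10. The p53 and death receptor lists share FAS and TNFRSF10B. TNFRSF21 and CFLAR, the latter an inhibitor of caspase 8, were the 2 higher members (0.32 and 0.48).

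Among NF-kB targets and chemokines, 7 of 14 tested were lower and 2 were higher, with a median of −0.49. The share lower was near the 42.3% of all genes, and the median was −0.11 among the 10 members with a mean of at least 5 FPKM. NFKBIE, an inhibitor of NF-kB, was at 7.23, 8.62, 6.60, 6.20 and 5.91 FPKM with CPT and 0.445 to 2.50 with T4 and T5, and the subunits RELB and NFKB2 differed by −1.87 ± 0.11 and −1.23 ± 0.17. NFKB1, the gene of the p50 subunit, went the other way. It was at 8.51, 4.54, 2.52, 2.42 and 2.56 FPKM with CPT, 15, 18.4, 15.2, 12.5 and 9.49 with T4, and 15.8, 14.3, 9.51, 8.08 and 7.29 with T5 (1.48 ± 0.16; limma, adjusted p = 5.67e-06). NFKB1 spans 116 kb, against 7.62 kb for NFKBIE, 36.8 kb for RELB and 8.42 kb for NFKB2.

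The integrated stress response answers amino acid or protein folding stress. Of its 15 genes, 10 were lower and 2 were higher (median −0.51), against 42.3% and 29.5% of all genes. The median span of the 15 genes was 19 kb, and 68.5% of protein-coding genes of 10 to 20 kb were lower. CHAC1, which degrades glutathione, was at 12.2 to 19.9 FPKM with CPT and 1.60 to 5.62 with T4 and T5 (−1.79 ± 0.15). TRIB3, DDIT3 and PPP1R15A, which act downstream of ATF4, differed by −1.57, −1.23 and −0.99, all with ranges that did not overlap. Of 14 endoplasmic reticulum stress genes, 5 were lower and 4 were higher, near the 42.3% and 29.5% of all genes, and 3 and 4 after median centring. XBP1, a transcription factor of the unfolded protein response, was at 34.5, 43.9, 42.5, 37.6 and 35.0 FPKM with CPT and 2.35 to 20.6 (median 8.80) with T4 and T5, against 28.7 with DMSO (−2.12 ± 0.25; limma, adjusted p = 1.12e-05). DNAJB9 and HERPUD1 were lower by 1.52 and 1.06 and the co-chaperone DNAJC3 was higher by 0.59. Heat shock genes gave 6 higher and 4 lower of 12, against 29.5% and 42.3% of all genes, and 4 and 4 without the 2 µM or the 5 µM CPT library. HSPA8, the constitutive HSP70, was higher by 0.68 and HSPH1 by 0.70, whereas the co-chaperone BAG3 was lower by 1.57. DNAJB1 was lower by 0.59 over all doses, and by 0.04 with no call at 0.5 and 2 µM alone.

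NRF2 targets, which answer oxidative stress, gave 4 higher and 6 lower of 13, near the 29.5% and 42.3% of all genes. They gave 4 and 2 after median centring, and 4 and 4 without the 2 µM CPT library. OSGIN1 (−1.80) and SRXN1 (−1.27) were lower and TXNRD1 (0.72) and SLC7A11 (0.57), a cystine transporter, were higher. Cholesterol synthesis genes gave 5 higher and 6 lower of 15, also near those shares. The balance turned with the setting, to 7 and 2 after centring, 5 and 1 at 0.5 and 2 µM alone, and 2 and 5 at 5 to 20 µM. HMGCS1, an early enzyme of that pathway, was at 35.8, 26.1, 19.99, 21.7 and 20.6 FPKM with CPT and 39.6 to 64.7 with T4 and T5 (1.05 ± 0.11; limma, adjusted p = 5.82e-06), with no overlap. INSIG1, which holds the pathway's regulator in check, was lower by 0.74, with no call at 0.5 and 2 µM alone. CYP51A1 and SQLE were higher by 0.55 each, and the call of SQLE was lost without the 2 or the 5 µM CPT library.

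Among 20 cleavage and polyadenylation factors, 6 were higher and 6 were lower, and the median was −0.12, close to that of all genes. The shares over all genes were 29.5% and 42.3%. After median centring 9 were higher and 5 were lower, and with CPT taken 1 dose step lower 4 and 8. CLP1, a kinase of cleavage factor II, was at 20.1, 32.5, 32.9, 30.9 and 30.8 FPKM with CPT, 11.2, 15.2, 8.78, 4.26 and 1.505 with T4, and 12.1, 13.8, 8.30, 3.91 and 1.25 with T5, against 7.40 with DMSO. The groups did not overlap and were furthest apart at 20 µM (−2.02 ± 0.31; limma, adjusted p = 1.02e-04). CSTF2T, a paralog of the RNA-binding subunit of the cleavage stimulation factor, is a gene without introns. It was at 15.3, 14.0, 10.2, 8.47 and 7.80 FPKM with CPT and 0.522 to 6.77 (median 2.48) with T4 and T5 (−1.74 ± 0.14; limma, adjusted p = 6.98e-07). CSTF1, another subunit of that factor, was at 18.1, 15.3, 7.98, 5.61 and 5.79 FPKM with CPT, 14.1, 8.80, 4.08, 1.61 and 0.718 with T4, and 11.9, 6.23, 3.17, 1.64 and 0.672 with T5. The 3 compounds all gave lower CSTF1 at 20 than at 0.5 µM, with T4 and T5 below CPT in 10 of 10 pairs (−1.14 ± 0.17; limma, adjusted p = 6.11e-05). FIP1L1, which binds poly(A) polymerase, was higher by 1.22 ± 0.12. It was at 15.2, 6.56, 3.51, 2.71 and 2.62 FPKM with CPT and 5.51 to 24.7 (median 12.6) with T4 and T5.

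The Integrator complex, which cuts nascent RNA of small nuclear RNAs and stalled genes, had 7 higher and 2 lower of 14 subunits. The shares over all genes were 29.5% and 42.3%, and without the dose block 4 were higher and 1 was lower. The median span of the subunits was 54.7 kb, and 43.6% of protein-coding genes of 50 to 100 kb were higher. INTS5 had the largest difference of the complex. It was at 9.93, 16.1, 18.1, 17.9 and 17.8 FPKM with CPT, 4.27, 2.70, 1.97, 0.941 and 0.441 with T4 and 3.39, 3.02, 2.09, 1.203 and 0.429 with T5, against 6.74 with DMSO (−2.58 ± 0.26; limma, adjusted p = 3.01e-06). ASUN (0.80) and INTS7 (0.73) were higher and INTS12 (−0.61) was lower, the last with no call at 0.5 and 2 µM alone. Of 15 nuclear RNA decay factors, 7 were higher and 4 were lower, against 29.5% and 42.3% of all genes. The balance turned to 2 and 6 (median −0.30) with CPT taken 1 dose step lower. EXOSC4 and EXOSC2, parts of the RNA exosome, differed by −1.89 and −0.74, whereas the exosome's helicase SKIV2L2 and the exonuclease XRN2 differed by 1.02 and 0.80.

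Transcription elongation factors gave 10 higher and 5 lower of 18, against 29.5% and 42.3% of all genes, with a median of 0.34. The median was 0.11 among the 15 members with a mean of at least 5 FPKM, and 6 were higher and 5 lower without the dose block. CDK12, a kinase of the polymerase tail, was at 7.67, 2.37, 1.35, 1.42 and 1.66 FPKM with CPT and 3.59 to 17.9 (median 5.48) with T4 and T5, against 9.90 with DMSO (1.21 ± 0.11; limma, adjusted p = 2.02e-06). CDK9, the kinase of the elongation factor P-TEFb, was at 23.2, 38.7, 39.7, 37.5 and 35.5 FPKM with CPT and 8.37 to 13.1 (median 9.93) with T4 and T5, against 13.4 with DMSO. All T4 and T5 libraries were below DMSO and all CPT libraries were above it (−1.68 ± 0.13; limma, adjusted p = 3.87e-07). MEPCE, the capping enzyme of 7SK RNA, was lower by 1.86. CDK12 spans 103 kb, and CDK9 and MEPCE span 5.11 and 5.34 kb. Among SR splicing proteins and their CLK kinases, 5 of 15 were higher, near the 29.5% of all genes, and 3 were lower. With CPT taken 1 dose step lower 2 were higher and 4 lower, and without the 5 µM CPT library 3 and 3. SRSF4 was at 13.0 to 23.7 FPKM with CPT and 0.895 to 16.7 with T4 and T5 (−1.80 ± 0.24), CLK2 was lower by 1.69 and TRA2B was higher by 0.87. SRSF3 was higher by 0.69, a call lost without the 2 or the 5 µM CPT library (0.54 each).

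**Figure D4:**
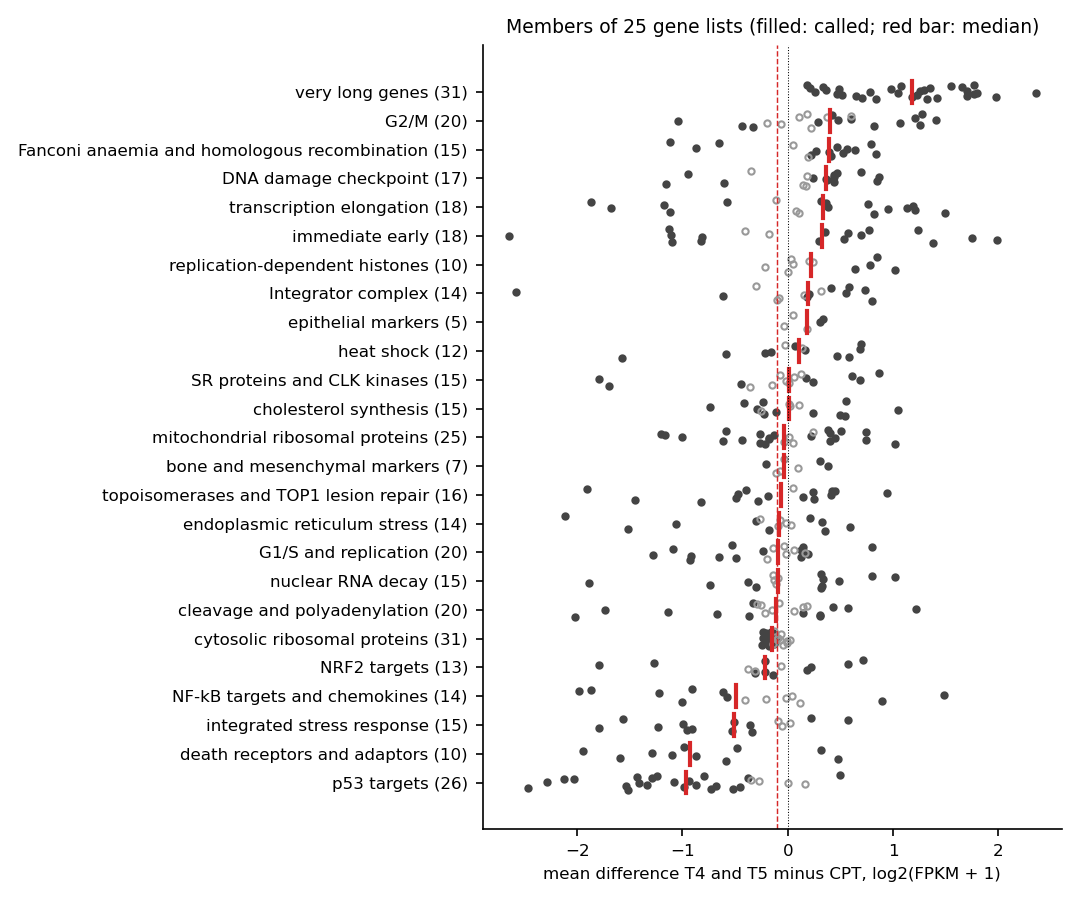
Mean difference in log2(FPKM + 1), T4 and T5 minus CPT, of each tested member of 25 gene lists, with the number of members in brackets. Filled points passed an adjusted p under 0.05, red bars are list medians and the dashed line is the median of all 10600 genes (−0.10). Medians run from −0.96 for p53 targets to 1.18 for very long genes.

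TOP1, the enzyme that camptothecin traps, was higher with T4 and T5. It was at 23.6, 12.9, 12.1, 13.4 and 14.2 FPKM with CPT, 39.7, 38.7, 28.0, 26.1 and 25.9 with T4, and 41.0, 32.9, 23.1, 22.6 and 22.1 with T5, against 31.0 with DMSO. T4 and T5 exceeded CPT in every pair, and the ranges overlapped only through 0.5 µM CPT (0.94 ± 0.09; limma, adjusted p = 3.40e-06). Of 16 topoisomerases and repair factors for trapped topoisomerase I, 7 were higher and 8 were lower, against 29.5% and 42.3% of all genes. They gave 8 and 6 after centring, and 6 and 3 of 10 at a mean of at least 5 FPKM. TOP3B, which acts on RNA and DNA, was at 6.14 to 9.78 FPKM with CPT and 1.16 to 2.83 with T4 and T5 (−1.90 ± 0.14). ERCC4 and EME1, subunits of structure-specific nucleases, were lower by 1.45 and 0.83. Both were below 1 FPKM in most T4 and T5 libraries, and a pseudocount of 5 moved them to −0.55 and −0.33. Fanconi anaemia and homologous recombination genes gave 10 higher and 3 lower of 15 (median 0.40), against the same shares, and 6 and 3 with CPT taken 1 dose step lower. FANCA, of the Fanconi core complex, was at 11.2 to 13.1 FPKM with CPT and 20.4 to 25.6 with T4 and T5 (0.84 ± 0.06), RBBP8, which starts resection of DNA ends, was higher by 0.79, and XRCC3 and PALB2 were lower by 1.11 and 0.87. DNA damage checkpoint genes gave 10 higher and 3 lower of 17 (median 0.37), against 29.5% and 42.3% of all genes, and 6 and 3 without the dose block. The median span was 73.3 kb in the Fanconi anaemia and homologous recombination list and 54.7 kb in the checkpoint list. Of protein-coding genes of 50 to 100 kb, 43.6% were higher and 20.1% were lower. The kinase CHEK1 (0.85) and NBN (0.87) were higher, and ATRIP (−1.15) and RAD9A (−0.94) were lower. ATRIP was below 1 FPKM in most T4 and T5 libraries, so the size of its difference follows the pseudocount. Like ERCC4, it passed the filter of a mean of at least 1 FPKM only through the CPT libraries.

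Genes of G2 and mitosis gave 10 higher and 3 lower of 20, against 29.5% and 42.3% of all genes, with a median of 0.40. The median by pair was highest for T4 at 2 µM (0.92) and below 0 for T5 at 10 and 20 µM (−0.06 and −0.23). At 0.5 and 2 µM alone 14 were higher and 2 lower (median 0.63), and at 5 to 20 µM 8 and 4 (median 0.11). CENPE, a kinetochore motor, was at 2.30, 0.672, 0.607, 0.641 and 0.638 FPKM with CPT and 1.28 to 10.5 (median 3.50) with T4 and T5, against 8.49 with DMSO (1.41 ± 0.20; limma, adjusted p = 4.20e-05). TPX2, BUB1B and KIF11, of the spindle and its checkpoint, were higher by 1.28, 1.26 and 1.21. Against DMSO, 2 of the 20 were higher with CPT and 1 with T4 and T5. Genes of the G1/S transition and replication gave 6 higher and 8 lower of 20, near the shares over all genes. They gave 8 and 7 after median centring, 3 and 10 at 0.5 and 2 µM alone, 2 and 8 at 5 to 20 µM, and 1 and 6 without the dose block. E2F1, which drives entry into S phase, was at 17.8, 23.4, 25.8, 25.2 and 24.0 FPKM with CPT and 6.74 to 13.8 (median 8.20) with T4 and T5, against 11.3 with DMSO (−1.27 ± 0.10; limma, adjusted p = 4.60e-07). ORC1 and CDT1, which license origins, were lower by 1.09 and 0.91 and the cyclin CCNE1 by 0.93. Among 10 replication-dependent histone genes tested, 4 were higher, against 29.5% of all genes, and none was lower at the adjusted threshold. HIST1H2AC was at 4.67, 8.26, 10.9, 9.54 and 10.3 FPKM with CPT and 11.7 to 31.3 with T4 and T5 (1.01 ± 0.24), and HIST2H2BE, HIST1H2BJ and HIST1H2BC were higher by 0.85, 0.78 and 0.64. Histone genes have near-identical copies and mostly lack poly(A) tails, so their FPKM is uncertain.

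Cytosolic ribosomal protein genes gave 21 lower and no higher member of 31 tested, against 42.3% and 29.5% of all genes. Their median span was 5.09 kb, and 74.2% of protein-coding genes of 5 to 10 kb were lower. The differences of the ribosomal protein genes were small, with a median of −0.15. Those of RPL12 and RPL8 were −0.24 each, and after median centring no member was called and the median was −0.01. Without the dose block, or with CPT taken 1 dose step lower, 1 member was lower, and without the 0.5 µM CPT library 13 were. Mitochondrial ribosomal protein genes gave 9 higher and 12 lower of 25, against 29.5% and 42.3% of all genes, and 11 and 6 after centring. MRPS2 (−1.21), MRPS12 (−1.17) and MRPL44 (−1.004) were lower, and MRPL1 (1.02), which spans 90.3 kb against 4.69 kb for MRPS2, was higher. MRPL44 had no call at 0.5 and 2 µM alone (−0.17).

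Early response genes, transcription factors and signalling genes that are switched on within minutes of a stimulus, differed between the treatments in both directions. Of 18 tested, 10 were higher and 6 were lower with T4 and T5 than with CPT, against 29.5% and 42.3% of all genes. The balance depended on dose and on the block, with 4 higher and 6 lower (median 0.04) at 0.5 and 2 µM alone, and 3 and 5 without the dose block. Relative to the single DMSO library, which was not tested, 17 were above it with CPT and 15 with T4 and T5. EGR1, a zinc finger factor, was at 13.0, 32.3, 49.4, 57.5 and 56.6 FPKM with CPT, 17.0, 74.0, 163, 271 and 332 with T4 and 29.1, 146, 322, 429 and 483 with T5, against 13.8 with DMSO. It was higher than CPT in all 10 pairs, and the gap was larger at higher doses (1.99 ± 0.29; limma, adjusted p = 6.02e-05). FOS, of AP-1, was at 4.26, 13.8, 20.6, 26.7 and 33.5 FPKM with CPT, 3.88, 24.96, 61.7, 113 and 154 with T4 and 9.41, 50.4, 122, 205 and 254 with T5, against 1.13 with DMSO. It was higher in 9 of 10 pairs (1.75 ± 0.32; limma, adjusted p = 3.95e-04), and at 0.5 and 2 µM alone the difference was 0.87 with no call. ARC, a synaptic gene with early response kinetics, differed by 1.38 ± 0.29 and at those doses by 0.55 with no call.

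FOSL1, the Fra-1 subunit of AP-1, was the opposite of FOS. It was at 24.2, 44.5, 53.5, 54.5 and 52.0 FPKM with CPT, 9.82, 8.25, 5.71, 4.02 and 2.89 with T4 and 6.89, 8.38, 7.29, 6.77 and 4.80 with T5, against 14.9 with DMSO. CPT libraries were all above DMSO and T4 and T5 libraries were all below it (−2.65 ± 0.24; limma, adjusted p = 1.34e-06). The other 5 lower members, named after their values were seen, were NR4A1 (−1.13), FOSL2 (−1.11), ATF3 (−1.10), DUSP5 (−0.82) and FOSB (−0.81).

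The change of the difference over dose was tested as a slope on log2 dose and scaled to the range of 0.5 to 20 µM. It rose for 703 genes (6.63%) and fell for 1352 (12.8%) at an adjusted p under 0.05, 19.4% in either direction. After median centring the counts were 1475 and 1079, and without the 20 µM libraries 289 genes rose. FOS (2.23 ± 0.70, limma, adjusted p = 0.0449) and EGR1 (2.09 ± 0.59, limma, adjusted p = 0.0295) were among 5 of the 18 early genes that rose. Of the 26 p53 targets 11 rose and 2 fell. The median difference of the p53 targets stayed below 0. It was −1.31 with T4 and −1.37 with T5 at 0.5 µM, and −0.78 and −0.95 at 20 µM. The chemokine CCL3 was at 2.60, 4.14, 2.91, 2.38 and 1.96 FPKM with CPT and from 1.04 and 2.11 at 0.5 µM to 6.68 and 15.7 at 20 µM T4 and T5 (slope 2.71 ± 0.64; limma, adjusted p = 0.0123). CCL4, its neighbour in function, had a slope of 2.61 ± 0.41 with a mean difference of −0.85 whose call was lost without the libraries of 0.5 µM (−0.49), of 2 µM (−0.73) or of 5 µM (−0.85). C2orf48 rose by 2.28 and RMRP, the RNA of ribonuclease MRP, by 3.97, from CPT values of 27.4 and 26.1 FPKM at 0.5 and 2 µM and 2.61 and 2.69 at 10 and 20 µM. Their mean differences over doses (−0.31 and 0.55) did not pass the test, and FPKM of the short RMRP is uncertain.

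The 5 genes named for the most falling slopes were all far below CPT at 20 µM, with mean differences of −3.93 to −2.58 at that dose. At 0.5 µM FAM83D, BMP4 and FBXO5 were at or above CPT (0.42, 0.61 and 0.11), and MFSD5 and FAM53C were below it (−0.42 and −0.80). Other genes fell from elsewhere: TMEM177 went from −1.34 to −4.37, and EXT1, still above CPT at 20 µM, from 3.21 to 2.22. FBXO5, an inhibitor of the anaphase-promoting complex, was at 26.1, 29.01, 26.0, 26.9 and 28.0 FPKM with CPT, 28.9, 23.9, 13.1, 5.07 and 1.92 with T4 and 27.7, 21.1, 13.3, 7.53 and 2.30 with T5 (slope −3.21 ± 0.41; limma, adjusted p = 4.38e-04). FAM83D, a spindle protein, had a slope of −3.73, from 24.0 and 19.4 FPKM at 0.5 µM T4 and T5 to 1.11 and 0.804 at 20 µM, with CPT at 15.9 to 21.9. MFSD5, a transporter (−3.41), the growth factor BMP4 (−3.26) and FAM53C (−3.10) fell likewise. BMP4 had a mean difference of −0.86 (limma, adjusted p = 0.0416) and was higher with T4 and T5 at 0.5 and 2 µM alone (0.40, with no call). Among the very long genes 12 of 31 fell and 1 rose, against 12.8% and 6.63% of all genes. Genes of more than 200 kb had a median slope of −0.41.

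**Figure D5:**
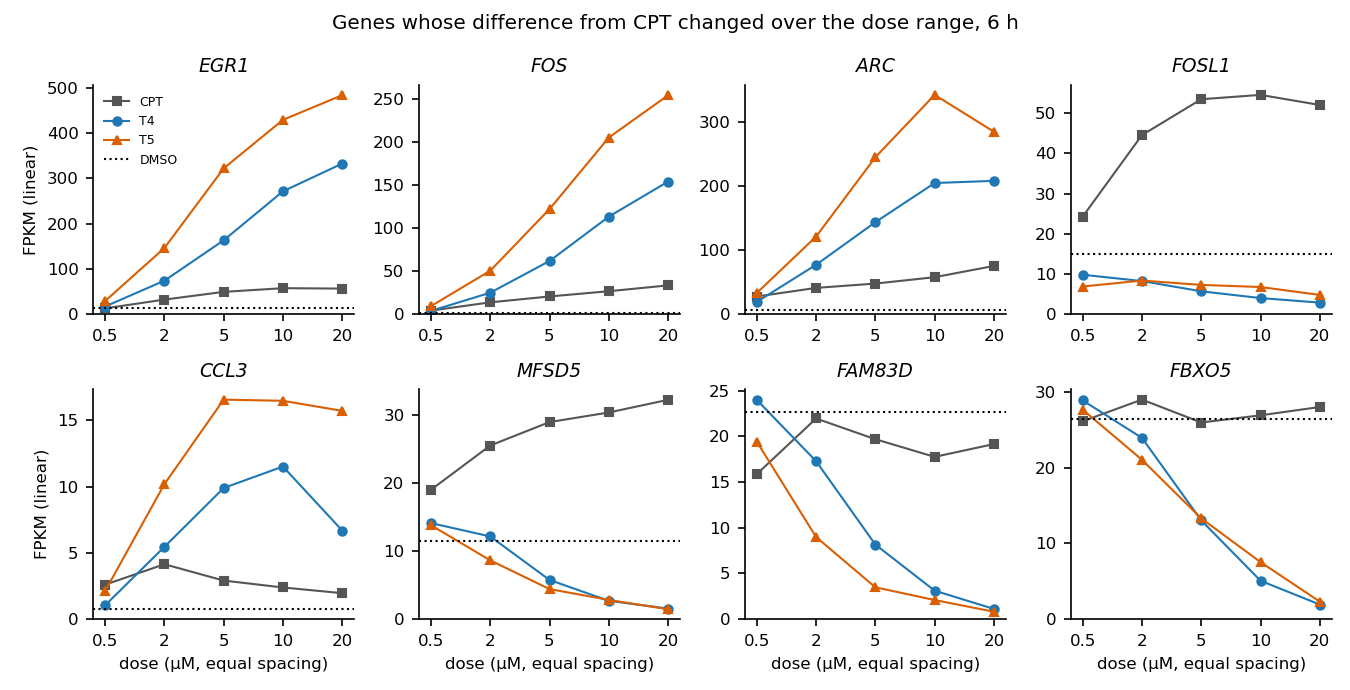
FPKM (linear axis from 0) at each dose in µM, equally spaced, of early genes (EGR1, FOS, ARC and FOSL1), CCL3 and 3 genes whose difference from CPT fell over dose. Points are single libraries and the dotted line is DMSO. FBXO5 stays at 26.0 to 29.01 FPKM with CPT and is at 1.92 and 2.30 with 20 µM T4 and T5.

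Taken singly, 2993 genes (28.2%) were higher and 3906 (36.8%) lower with T4 than with CPT, 65.1% in either direction. With T5, 2654 (25%) were higher and 3993 (37.7%) lower, 62.7% in either direction, with p-values adjusted over both pairs together. Median centring gave 3402 and 3018 for T4, and 3983 and 2520 for T5. Both comparisons use the same 5 CPT libraries, so their likeness is not independent. Called in both were 2419 genes in the higher and 3386 in the lower direction, and 2 genes were called in opposite directions. EXT1 differed by 3.00 with T4 and 2.76 with T5, S1PR3 by −3.04 and −3.27, BTG2 by −2.68 and −2.26, and CDKN1A by −1.80 and −1.27. T4 and T5 themselves differed at matched doses in 32.5% of genes, with 2807 (26.5%) higher and 641 (6.05%) lower with T4. At single doses, the number of genes at least 2-fold lower than with CPT was 352 with T4 and 680 with T5 at 0.5 µM, and 1368 and 1403 at 20 µM. The number at least 2-fold higher was 663 and 527 at 0.5 µM and 333 and 156 at 20 µM, with the largest counts at 2 µM (1053 and 708).

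Promoters of named genes were searched for the cyclic AMP response element TGACGTCA, which reads the same on either strand, in the 250 bases before the gene start in RefSeq (GRCh38.p14). It was present in 6 of the 95 named genes with an entry (6.32%), out of 131 named, and in 555 of all 27305 genes (2.03%). The named genes had passed the expression filter and the 27305 were not filtered, so these shares are of unlike sets. The element was in 1 of 9 matched genes of the 12 higher and in 0 of 6 of the 12 lower. The 6 genes were CENPE, CSTF1, DDX10, INTS7, PPP1R15A and XRN2. A match is a description of the letters and no evidence of binding. The higher gene DDX10, which holds 2 copies, and the lower gene CSTF1 are shown, with the element in capitals, for chr11:108664819-108665068 (plus strand) and chr20:56392395-56392644 (plus strand).
DDX10: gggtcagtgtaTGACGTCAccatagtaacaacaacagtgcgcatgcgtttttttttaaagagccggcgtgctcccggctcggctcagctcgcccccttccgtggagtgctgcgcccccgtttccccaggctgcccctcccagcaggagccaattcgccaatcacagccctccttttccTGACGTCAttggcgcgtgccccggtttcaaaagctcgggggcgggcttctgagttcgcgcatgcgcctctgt
CSTF1: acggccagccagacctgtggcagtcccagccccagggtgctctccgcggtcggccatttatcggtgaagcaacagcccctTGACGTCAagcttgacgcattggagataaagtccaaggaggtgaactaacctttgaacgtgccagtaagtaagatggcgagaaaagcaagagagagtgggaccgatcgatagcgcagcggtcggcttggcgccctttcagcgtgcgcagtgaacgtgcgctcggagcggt
DDX10 was at 2.89, 0.663, 0.617, 0.576 and 0.633 FPKM with CPT and 3.17 to 18.7 with T4 and T5, and CSTF1 was lower with T4 and T5 as given above.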

How the data were processed

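RNA sequencing libraries of U2OS cells were compared by compound and dose from the sample titles. FPKM values were deposited by the authors as 1 matrix with a column per library, per the file headers. The submitters' processing notes name GSNAP, Cufflinks, hg19 and GRCh37 with no roles. Strand, annotation and versions are not given in the sources, so overlapping genes on opposite strands cannot be told apart. An exact 0 can be a failed estimate. After 2 inner header lines, 1 incomplete line and 220 repeated lines were left out, log2(FPKM + 1) of the 10600 genes with a mean of at least 1 FPKM over 16 libraries was tested, a scale that understates changes of low genes. A gene high on 1 side alone could pass the mean filter through that side. Total depth and counts were not recovered, so no count test was run.

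Limma 3.58.1 (R 4.3.3, with data.table for reading) fitted compound side and dose block, with its trend of variance on mean. Tests were 2-sided at 0.05 after Benjamini-Hochberg adjustment over all genes, over both pairs jointly where T4 and T5 were tested singly. The T4 and T5 library of a dose share 1 CPT library. Slopes used log2 dose by side. The scripts were tested on simulated data. Tables were made with pandas 2.3.3 and plots with matplotlib 3.10.9. Relative depth came from steps among values below 0.2 FPKM. Span and exon number came from GENCODE 29 by gene symbol, a newer build than the files', and are used as gene properties without coordinates.

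The members and the 26 lists were chosen with earlier results of these data known. Named genes were the 12 higher and 12 lower with the largest difference among called genes with 1 sign in 10 pairs, the 5 most rising and 5 most falling slopes, the 4 largest absolute differences in each list, and CDKN1A, MDM2, TOP1, FOS, EGR1, CSTF1 and CLP1. Pseudogenes, XIST, Y-linked genes, small nuclear, nucleolar and micro RNAs and genes without a symbol were passed over. Older symbols were matched through RefSeq synonyms, which can lead to another gene. RMRP was so given the type, span (8.89 kb) and exons (5) of a protein-coding gene. The alternatives were the pseudocount, the filter, median centring, quantile normalization, no trend, no dose block, CPT 1 dose step lower, dose subsets, and leaving out each library or dose. Medians by span and exons, and list counts under each alternative, were added after seeing the data. Some genes that the naming rule picked are not reported here.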

Additional observations from a re-analysis of the deposited data

Results flagged for a closer look

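These genes named in the report differed between T4 and T5 at matched doses (limma with dose as a block, adjusted p under 0.05), so their differences from the shared CPT libraries were not the same for the 2 compounds. Among all 10600 genes, 2807 (26.5%) were higher and 641 (6.05%) lower with T4 than with T5, so a flag of this kind is common. All values are mean T4 minus T5 in log2(FPKM + 1).

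Early genes and chemokines differed with EGR1 at −0.78, FOS −0.92, ARC −0.67 and CCL3 −0.74. The p53 targets and death receptors differed with BTG2 at −0.42, PLK3 −0.36, CDKN1A −0.53, SESN1 0.25, MDM2 0.29, TNFRSF10B 0.40 and RIPK1 0.24. NF-kB subunits differed with RELB at 0.27 and NFKB1 0.36. Genes of the stress lists differed with CHAC1 at −0.38, DDIT3 −0.37, DNAJB9 0.22 and TXNRD1 0.26. Long or otherwise higher genes differed with KRTAP2-3 at −0.75, RPPH1 −0.67, EXT1 0.25, GPHN 0.32, DDX10 0.22, PPP2R5E 0.32 and CDKAL1 0.17. Lower genes and falling slopes differed with S1PR3 at 0.24, EXO5 0.28, WIBG 0.37 and FAM83D 0.57. RNA processing and elongation genes differed with CSTF2T at 0.32, SKIV2L2 0.25, EXOSC2 0.31, INTS7 0.16, CDK12 0.27, SRSF4 0.57 and SRSF3 0.51. Repair and checkpoint genes differed with TOP1 at 0.17, ATRIP 0.21 and NBN 0.18. Cell cycle genes differed with CCNE1 at −0.50, CDT1 −0.29, CENPE 0.47, TPX2 0.41, BUB1B 0.39 and KIF11 0.52. Ribosomal, histone and marker genes differed with MRPL1 at 0.22, HIST1H2AC 0.28, SPP1 −0.20, KRT14 −0.20 and KRT8 −0.20. The direction relative to CPT was the same for T4 and T5 in each of these genes except MDM2, which was 0.15 with T4 and −0.14 with T5, and KRT8 (−0.05 and 0.15).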

How the results depend on the processing

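For the 131 named genes, 4056 of 4167 recomputed differences kept their direction and call, 81 lost the call, 7 gained it, 22 uncalled values moved and 1 reversed, that of BMP4, to 0.403 at 0.5 and 2 µM alone. In 102 genes nothing changed under any of the 32 settings. Counts of higher and lower genes against CPT were within 1.5 times the reported ones in every fit without 1 library or 1 dose; those of rising slopes ranged from 289 without 20 µM to 893 without 0.5 µM, with 363 without 10 µM, 404 without the 10 µM CPT library, 293 without the 20 µM CPT library and 463 without the 0.5 µM T5 library. Testing all genes gave 6810 lower and 1370 rising, and medians of −0.0093 for all genes, 0.175 above 200 kb, −0.0958 up to 10 kb and −0.0666 for up to 3 exons, by construction including many genes near 0. A mean of at least 5 FPKM tested fewer genes and gave 1898 higher and 2613 lower (T4 1760 and 2286; T5 1643 and 2225), 293 rising and 811 falling, and −0.378 for up to 3 exons. Median centring gave 3983 higher and 2520 lower for T5, 1475 rising, and medians of 0.0391, −0.210 (up to 10 kb) and −0.339 (up to 3 exons); quantile normalization gave 1526 rising and 0.0041, −0.257 and −0.346. Without the dose block there were 1995 higher and 2872 lower (T4 1764 and 2305; T5 1331 and 2446) and 408 rising. A pseudocount of 0.1 gave 0.772 above 200 kb and −0.596 for up to 3 exons, and 5 gave 0.272, −0.244 up to 10 kb and −0.279. The cause was not tested where no construction is named. Pairing each T4 and T5 library with the next lower CPT dose left 2626 higher and 3886 lower. The labels give no replicate numbers, so libraries were matched by dose alone, as the block of the reported fit. Depth limits low values: below about 1 FPKM the size of a difference follows the pseudocount.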
